A study of Homo sapiens with 9 samples.

Results

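The 51 genes described here copy DNA or admit the cell into S phase. They were chosen by symbol, from the origin recognition complex to the cyclins and the kinase of the G1/S step, and each was measured by every probe set of the array that its annotation assigns to that symbol alone. All 51 were measured, by 136 probe sets, among 18132 genes and 49293 probe sets in all. The cells were Y79, an established human retinoblastoma line grown in RPMI medium, and the platform was the Affymetrix PrimeView array. There were 3 groups of 3 arrays: cells given GNPs-HDM2, gold nanoparticles that carry an HDM2 peptide (the conjugate), cells given GNPs, the gold nanoparticles without it (bare particles), and untreated cells. The source names of the treated arrays write Y97, while the cell line field gives Y79 for all 9. HDM2 is the human MDM2 protein, the ubiquitin ligase that restrains p53, and the title of the series names the interaction of p53 with HDM2 as the target of the peptide. The sources used here do not give the dose, the duration of treatment or the culture behind each array, so the tests see the spread among these arrays alone, which may be technical.

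Replication starts at origins that are marked in G1 by the origin recognition complex, where CDC6 and CDT1 load the MCM helicase. In S phase the kinases CDK2 and CDC7 convert the loaded helicase to an active one with CDC45 and GINS, and polymerases, the sliding clamp PCNA and its loader RFC then work at the fork. Most of these genes are textbook targets of E2F factors, which the retinoblastoma protein holds in check, and p53 is known to lower many of them through its target CDKN1A and the DREAM complex. Retinoblastoma cells such as Y79 lack a working retinoblastoma protein and divide continuously.

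Each deposited value is a logarithm, here taken to base 2, of signal over a baseline that is particular to its probe set, so the values give differences between arrays but no level of a gene. A trace of the level remained in the step size of the stored numbers, from which probe sets were sorted into classes called bright (baseline 8 to 16 on the log2 scale), middle (4 to 8) and dim (2 to 4). With the conjugate the median difference from untreated cells was -1.03 for the 9072 bright, 0.17 for the 24204 middle and 0.49 for the 14043 dim probe sets. Hybridization controls, transcripts added to every sample in known quantity, averaged 1.76 on the conjugate, -0.14 on the bare particle and -0.43 on the untreated arrays, so that conjugate minus untreated was 2.19. Of 12 photoreceptor lineage markers, 6 had a bright probe set (AIPL1, CRX, GNB3, NRL, OTX2 and PDE6H). So had 1 of 6 pigment epithelium markers (PMEL) and 1 of 5 Mueller glia markers (GLUL), but none of the 6 fibroblast or 4 blood markers. The per-array median of the photoreceptor lineage markers ranged over -0.86 to 0.19 with the conjugate, 0.73 to 0.75 with bare particles and 0.11 to 0.64 in untreated cells. For the fibroblast markers the ranges were 0.18 to 0.76 with the conjugate, -0.12 to -0.033 with bare particles and -0.021 to 0.084 in untreated cells, and for the blood markers 0.42 to 0.78 with the conjugate, -0.16 to 0.017 with bare particles and -0.031 to 0.056 in untreated cells. For the pigment epithelium markers they were 0.27 to 1.03 with the conjugate, -0.12 to -0.017 with bare particles and -0.051 to -0.022 in untreated cells, and for the Mueller glia markers 0.09 to 0.69 with the conjugate, -0.13 to -0.059 with bare particles and -0.065 to 0.16 in untreated cells. The photoreceptor list thus reached its lowest values, and the other 4 lists their highest, on conjugate arrays. The part of these shifts in the results below was not tested, beyond the centring within classes that is given beside them.

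With the conjugate, 41 of the 51 genes were lower than in untreated cells and 1, MCM5, was higher (limma, Benjamini-Hochberg adjusted p under 0.05 over all genes). Of all 18132 genes, 25.1% passed the same test as lower and 33.1% as higher. The median difference of the 51 genes was -1.22 on the log2 scale, against 0.25 for all genes, and 2 of the 51 lay above 0, MCM5 and POLE, against 59.7% of all genes. The 3 conjugate arrays lay below the 3 untreated arrays without overlap for 36 of the 51 and above them for MCM5 alone, while over all genes 23.9% were lower and 36% higher without overlap. As deposited, the genes called lower were 6 of 6 origin recognition genes, 7 of 9 licensing genes, 6 of 8 origin firing genes, 6 of 9 polymerase genes, 9 of 11 genes of the clamp and fork, 4 of 4 genes of nucleotide supply and 3 of 4 genes of the G1/S cyclins and kinase. With each array centred within classes of signal level, 6 origin recognition genes, 5 licensing genes, 5 origin firing genes, 4 polymerase genes, 7 genes of the clamp and fork, 2 of nucleotide supply and 3 of the G1/S cyclins and kinase were lower, and 3 polymerase genes and 2 of the clamp and fork were higher, against 22.9% lower and 23.9% higher of all genes. Under quantile normalization 1 origin recognition gene, 4 licensing genes, 1 origin firing gene, 0 polymerase genes, 2 genes of the clamp and fork, 2 of nucleotide supply and 1 of the G1/S cyclins and kinase were lower and none higher, against 7.47% lower and 3.15% higher of all genes. The 9 genes that passed in neither direction were CDT1, CDC45, GINS4, POLD1, POLD2, POLE, LIG1, RFC4 and CDK2. In RNA from whole cultures, fewer cells in S phase and less RNA of these genes per cell cannot be told apart.

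**Figure D1:**
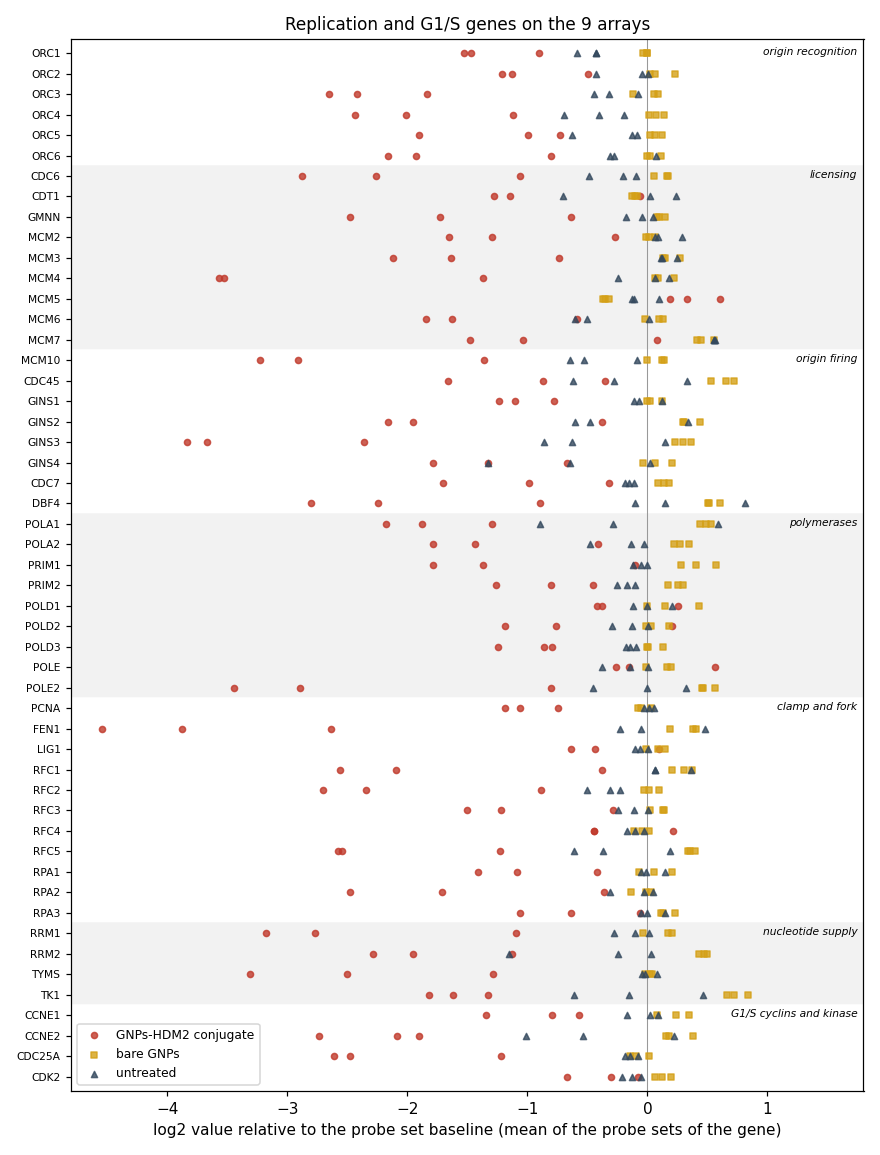
Log2 value of each of the 51 genes relative to the baseline of its probe sets (horizontal axis) on the 3 conjugate (circles), 3 bare particle (squares) and 3 untreated arrays (triangles), with the genes in 7 groups by role. Most circles lie left of both other groups, the circles of MCM5 lie right of them, and some untreated triangles, such as the lowest of GINS4 and of RRM2, lie as far left as a circle of the same gene.

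The 3 conjugate arrays differed more among themselves than the others did. The median of the 51 genes was -1.63, -1.71 and -0.73 on conjugate replicates 1 to 3, 0.14, 0.13 and 0.12 on the bare particle arrays and -0.17, -0.13 and 0.0086 on the untreated arrays. Conjugate replicate 3 had the highest of the 3 conjugate values for 49 of the 51 genes. The median of all bright probe sets was nearest to 0 on the same array, at -0.22, against -1.14 and -1.60 on conjugate replicates 1 and 2. The median SD of the 51 genes within a group was 0.670 with the conjugate, 0.0667 with bare particles and 0.173 in untreated cells. The fit assumes 1 spread for all 3 groups. When the conjugate and untreated arrays were fitted alone, without the bare particle arrays, 10 of the 51 genes lost their call and 0 turned direction.

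All 6 genes of the origin recognition complex, which binds origins in G1, were lower with the conjugate, although quantile normalization turned ORC1, ORC4 and ORC5 to 0.46, 0.011 and 0.077 with no call and left a call of lower on ORC3 alone, while leaving out untreated replicate 3 left 4 of the 6 lower, against 18.9% lower and 17.1% higher of all genes. ORC3, a subunit of its core, fell most. It lay at -2.42, -2.65 and -1.84 on the conjugate arrays, at 0.054, 0.091 and -0.12 on the bare particle arrays and at -0.077, -0.32 and -0.44 on the untreated arrays, a difference of -2.02 (SE 0.22, limma adjusted p = 0.000725), or 4.07-fold lower. ORC2, another core subunit, had the smallest difference of the 6. Its values were -1.21, -1.13 and -0.49 with the conjugate, 0.23, 0.025 and 0.062 with bare particles and -0.041, -0.43 and 0.009 in untreated cells, a difference of -0.79 (SE 0.22, limma adjusted p = 0.0137). For ORC2 conjugate replicate 3 lay just below untreated replicate 2, whereas for ORC3 the groups were far apart. ORC1, the ATPase subunit that comes and goes with the cycle, differed by -0.82 (SE 0.18), ORC4 by -1.42 (SE 0.29), ORC5 by -0.93 (SE 0.28) and ORC6, the subunit least tied to the core, by -1.46 (SE 0.31). The only probe set of ORC1 was 11727839_x_at, so the filter that drops s and x probe sets left this gene out. ORC3 is not uniform: of its 7 probe sets 4 were called lower, at -2.99 to -4.36, and 1, 11761315_at, was called higher at 0.65 (SE 0.24). ORC2 and ORC5 each had 1 of 3 probe sets called lower, the bright one, at -2.21 and -1.50. The others lay at -0.19 and 0.025 for ORC2 and at -0.68 and -0.60 for ORC5, with no call.

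Among the licensing genes the helicase subunits split. MCM4 fell most, at -3.53, -3.57 and -1.37 on the conjugate arrays, at 0.091, 0.22 and 0.066 on the bare particle arrays and at -0.25, 0.061 and 0.18 on the untreated arrays, which is -2.82 (SE 0.49, limma adjusted p = 0.0029), or 7.06-fold lower, and all 5 of its probe sets were called lower. MCM3 (-1.66, SE 0.29), MCM7 (-1.37, SE 0.32), MCM2 (-1.22, SE 0.30) and MCM6 (-0.99, SE 0.30) were lower too, though MCM6 turned to 0.039 with no call under quantile normalization. Of the 4 probe sets of MCM3 3 were called lower, at -1.80 to -2.76, and the bright 11742996_a_at lay at -0.26 with no call. MCM6 was called with overlapping groups, since conjugate replicate 3 stood at -0.59 and untreated replicate 1 at -0.60. CDC6, the ATPase that loads the helicase, fell by 1.81 (SE 0.37) and GMNN, the inhibitor of CDT1, by 1.56 (SE 0.37). CDT1, the partner of CDC6 in loading, was not called at -0.68 (SE 0.33, limma adjusted p = 0.0993). Of the 3 probe sets of CDT1 1 was called lower, at -1.17 (SE 0.32), and the others lay at -0.24 and -0.63.

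MCM5, the remaining subunit of the MCM2 to MCM7 ring, stood apart in direction and was read by 1 probe set, 11748675_a_at, of the middle class. It lay at 0.33, 0.19 and 0.60 on the conjugate arrays, at -0.35, -0.32 and -0.37 on the bare particle arrays and at 0.099, -0.13 and -0.11 on the untreated arrays. The conjugate arrays were above every untreated array, and the bare particle arrays below every untreated array. The means were 0.37 ± 0.21 with the conjugate, -0.35 ± 0.025 with bare particles and -0.046 ± 0.13 in untreated cells (SD, n = 3 each). The difference of conjugate minus untreated was 0.42 (SE 0.16, limma adjusted p = 0.0445), or 1.34-fold higher, in the fit over genes, and the same values gave an adjusted p of 0.0813 in the limma fit over all probe sets, above the threshold of 0.05. The median of all genes was itself 0.25 higher with the conjugate. Of 20 alternatives in which MCM5 was measured, 4 kept the call and 16 lost it, with values from 0.25 to 0.51 and adjusted p from 0.026 to 0.238. It was lost without conjugate replicate 1 and also without any single bare particle or untreated array. The other MCM genes and MCM5 thus differed in sign, while the call on MCM5 was lost in most alternatives.

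Of the genes that fire a licensed origin, GINS3, a subunit of the GINS complex, was lowest with the conjugate. It lay at -3.67, -3.84 and -2.36 on the conjugate arrays, at 0.36, 0.23 and 0.30 on the bare particle arrays and at -0.86, -0.62 and 0.15 on the untreated arrays, a difference of -2.85 (SE 0.38, limma adjusted p = 0.00125), or 7.19-fold lower. GINS4, of the same complex, had the smallest difference of the 8. Its values were -1.33, -0.67 and -1.78 with the conjugate, 0.067, -0.039 and 0.21 with bare particles and -1.33, -0.65 and 0.021 in untreated cells, and the groups of conjugate and untreated arrays overlapped (-0.61, SE 0.35, limma adjusted p = 0.149). Untreated replicate 1 was as low as conjugate replicate 1. GINS1 (-1.02, SE 0.16) and GINS2 (-1.25, SE 0.43) fell between these, so 3 of the 4 GINS genes passed. DBF4, the activating subunit of the kinase CDC7, fell by 2.27 (SE 0.42) and CDC7 itself by 0.85 (SE 0.29). MCM10, which helps to activate the helicase, fell by 2.08 (SE 0.40). CDC45, which joins GINS on the helicase, was not called (-0.77, SE 0.33, limma adjusted p = 0.0644). By probe set, 2 of 3 of CDC45 and 1 of 4 of GINS4 were called lower. Their values ran from -1.54 to 0.14 for CDC45 and from -2.06 to 0.47 for GINS4.

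Polymerase genes divided by subunit. POLE2, the second subunit of the leading strand polymerase epsilon, fell most, at -2.89, -3.44 and -0.80 on the conjugate arrays, at 0.56, 0.46 and 0.45 on the bare particle arrays and at -0.45, 0 and 0.32 on the untreated arrays, a difference of -2.33 (SE 0.55, limma adjusted p = 0.00792), or 5.04-fold lower. POLE, the catalytic subunit of the same enzyme, lay at -0.15, -0.26 and 0.56 on the conjugate arrays, at 0.20, -0.012 and 0.17 on the bare particle arrays and at -0.38, -0.14 and 0.0083 on the untreated arrays. Its groups overlapped and the difference was 0.22 (SE 0.22, limma adjusted p = 0.4), the highest of the 9 and above 0. The catalytic subunit of the lagging strand polymerase delta, POLD1, and its partner POLD2 were not called either (-0.21, SE 0.22, and -0.44, SE 0.30), while POLD3, an accessory subunit of delta, fell by 0.83 (SE 0.16). Of the 3 probe sets of POLD3 only 1 was called lower, and their values ran from -2.20 to 0.15. All 4 genes of the polymerase alpha and primase complex, which lays down primers, were lower: POLA1 (-1.59, SE 0.35), POLA2 (-0.998, SE 0.30), PRIM1 (-1.03, SE 0.35) and PRIM2 (-0.66, SE 0.20), the last of which turned to 0.041 under quantile normalization and to 0.21 without s or x probe sets. POLA2 and PRIM2 each had 1 of 2 probe sets called lower, and the other lay at -0.12 for POLA2 and 0.21 for PRIM2. POLE2 and POLE were read by 1 probe set each, and the filters on probe set suffix and on variance removed that of POLE. A difference between the polymerase subunits was not tested as such.

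At the fork, FEN1 had the lowest difference of all 51 genes. FEN1, the nuclease that trims the flaps of Okazaki fragments, lay at -3.88, -4.54 and -2.63 on the conjugate arrays, at 0.38, 0.40 and 0.19 on the bare particle arrays and at -0.23, -0.054 and 0.48 on the untreated arrays. The difference was -3.75 (SE 0.40, limma adjusted p = 0.000725), or 13.5-fold lower. The highest conjugate value was far below the lowest untreated value, and the 3 bright probe sets of FEN1 gave -3.71, -3.90 and -3.64. RFC4, a subunit of the clamp loader, had the highest difference of the 11. It lay at -0.45, -0.45 and 0.22 on the conjugate arrays, at 0.017, -0.11 and -0.046 on the bare particle arrays and at -0.029, -0.17 and -0.10 on the untreated arrays, with overlapping groups (-0.13, SE 0.19, limma adjusted p = 0.574). Its mean hides probe sets that were called in opposite directions, the bright 11722872_a_at at -1.35 (SE 0.48) and the dim 11761625_at at 0.60 (SE 0.20). The other loader subunits fell: RFC5 (-1.85, SE 0.35), RFC1 (-1.84, SE 0.45), RFC2 (-1.63, SE 0.38) and RFC3 (-0.88, SE 0.27). So did 2 subunits of RPA, which coats single strands, RPA2 (-1.42, SE 0.42) and RPA1 (-0.999, SE 0.23), but RPA1 turned to 0.42 without s or x probe sets. RPA3, the small subunit, passed as lower over genes (-0.62, SE 0.23, limma adjusted p = 0.0419), but its only probe set did not pass in the limma fit over all probe sets (adjusted p = 0.0604). Of 21 alternatives 8 kept the call on RPA3, 11 lost it and 2 turned its direction. Both of these were centrings within level classes, at 0.38, past the threshold without array weights (limma adjusted p = 0.0499) and short of it with them (limma adjusted p = 0.135). LIG1, the ligase that seals Okazaki fragments, was not called (-0.27, SE 0.19, limma adjusted p = 0.234).

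PCNA, the clamp that tethers polymerases to DNA, was read by probe sets of opposite level that gave opposite signs. The bright 11716103_a_at lay at -2.56, -3.16 and -1.53 on the conjugate arrays, at 0.063, -0.037 and 0.056 on the bare particle arrays and at -0.13, 0.066 and 0.024 on the untreated arrays. Its difference was -2.40 (SE 0.34, limma adjusted p = 0.00155), over all probe sets, or 5.29-fold lower, and the groups were far apart. The dim 11761013_at lay at 0.43, 0.79 and 0.039 on the conjugate arrays, at 0, -0.11 and -0.16 on the bare particle arrays and at 0.079, -0.039 and 0.088 on the untreated arrays. It was not called (0.38, SE 0.21, limma adjusted p = 0.16), and conjugate replicate 3 lay among the untreated values. The median of all dim probe sets was 0.49 higher with the conjugate, and centred within its class this probe set stood at -0.098, while the bright one stood at -1.41 (limma adjusted p = 0.000523). As the mean of both, the gene differed by -1.01 (SE 0.16, limma adjusted p = 0.00203). A fall of PCNA therefore rests on the bright probe set.

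**Figure D2:**
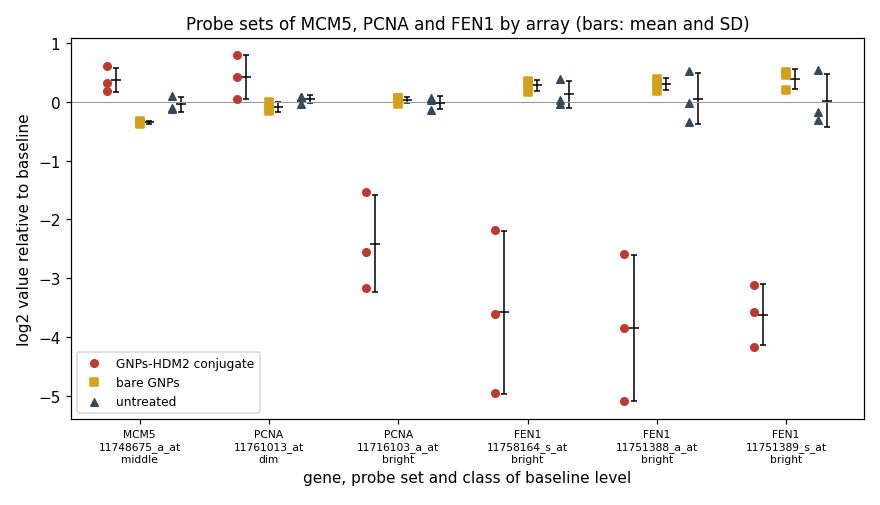
Log2 values relative to baseline (vertical axis) of the 6 probe sets of MCM5, PCNA and FEN1 on the conjugate (circles), bare particle (squares) and untreated arrays (triangles), with the mean and SD of each group of 3 beside its points. The conjugate points of the 4 bright probe sets lie between -5.09 and -1.53, and those of the middle probe set of MCM5 and the dim probe set of PCNA lie above 0.

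The 4 genes of nucleotide supply were all lower as deposited. TYMS, the thymidylate synthase, lay at -2.50, -3.31 and -1.29 on the conjugate arrays, at 0.024, 0.04 and -0.022 on the bare particle arrays and at -0.049, 0.076 and -0.021 on the untreated arrays, a difference of -2.37 (SE 0.40, limma adjusted p = 0.00263), or 5.16-fold lower, with no overlap. RRM2, the S phase subunit of ribonucleotide reductase, had the smallest difference of the 4. It lay at -1.95, -2.28 and -1.13 on the conjugate arrays, at 0.50, 0.47 and 0.43 on the bare particle arrays and at -1.16, -0.25 and 0.029 on the untreated arrays, a difference of -1.33 (SE 0.34, limma adjusted p = 0.0109). Its untreated replicate 1 was lower than conjugate replicate 3, so these groups overlapped. RRM1, the large subunit of the same enzyme, fell by 2.22 (SE 0.43) and TK1, the thymidine kinase of dividing cells, by 1.49 (SE 0.26). Centred within level classes, RRM2 went to -0.33 and TK1 to -0.49 with no call. Under quantile normalization too, only TYMS and RRM1 of the 4 were called lower.

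Of the genes at the G1/S step, CDC25A, the phosphatase that activates CDK2, was lowest. It lay at -2.48, -2.61 and -1.22 on the conjugate arrays, at -0.15, 0.016 and -0.091 on the bare particle arrays and at -0.081, -0.18 and -0.14 on the untreated arrays, a difference of -1.96 (SE 0.31, limma adjusted p = 0.00226), or 3.9-fold lower, and all 3 of its probe sets were called lower. The cyclins that bind CDK2, CCNE2 (-1.80, SE 0.31) and CCNE1 (-0.88, SE 0.21), fell as well. Each had 1 of 2 probe sets called lower. Those of CCNE2 lay at -3.41 and -0.20, and those of CCNE1 at -1.32 and -0.44. CDK2 itself lay at -0.67, -0.082 and -0.30 on the conjugate arrays, at 0.20, 0.12 and 0.067 on the bare particle arrays and at -0.21, -0.13 and -0.055 on the untreated arrays. Its groups overlapped, and it was not called at -0.22 (SE 0.17, limma adjusted p = 0.284). Of the 3 probe sets of CDK2 1 was called lower, and their values ran from -0.57 to 0.30.

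The promoters of these genes, as RefSeq gives them on GRCh38.p14, were searched on both strands from 250 bases before to 50 after the start of the gene. For each gene only the first listed promoter was searched, so any other start of the gene was not. A promoter was on hand for 43 of the 51, the others being MCM4, MCM5, GINS4, POLD3, RPA2, RPA3, CCNE2 and CDK2. Letters that E2F factors are known to bind (TTTCCCGC or TTTCGCGC or TTTGCCGC or TTTGGCGC) stood in 19 of the 43, which is 44.2%, and in 3.33% of all 27305 promoters. CCAAT, the letters bound by NF-Y, stood in 23, or 53.5%, against 35.7% of all promoters. The CHR letters of cell cycle genes (TTTGAA, or else TTCGAA) stood in 3, or 6.98%, against 16.6% of all. Different motifs were counted separately, and none of the E2F forms holds the CHR letters or CCAAT. These are matches of letters and no sites. Of the 19 genes with E2F letters 16 were lower with the conjugate (median -1.25), and of the 24 without them 20 were lower (median -1.18).

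The promoter of PCNA and that of FEN1, the lowest gene, are shown from 250 bases before the start up to the base before it, 5′ to 3′ on the strand of the gene. Capitals mark every match of the E2F, CHR and CCAAT letters on either strand. PCNA holds an E2F match at -59 to -52 from its start and 3 CCAAT matches, and FEN1 has no match of any of the 3 kinds in this window.
PCNA, chr20:5126623-5126872 (-): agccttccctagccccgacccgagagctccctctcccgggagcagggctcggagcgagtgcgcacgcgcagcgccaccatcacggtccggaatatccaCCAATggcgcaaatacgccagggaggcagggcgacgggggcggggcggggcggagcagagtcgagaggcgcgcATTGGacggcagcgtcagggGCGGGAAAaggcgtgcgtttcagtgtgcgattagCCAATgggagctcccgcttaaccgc
FEN1, chr11:61792661-61792910 (+): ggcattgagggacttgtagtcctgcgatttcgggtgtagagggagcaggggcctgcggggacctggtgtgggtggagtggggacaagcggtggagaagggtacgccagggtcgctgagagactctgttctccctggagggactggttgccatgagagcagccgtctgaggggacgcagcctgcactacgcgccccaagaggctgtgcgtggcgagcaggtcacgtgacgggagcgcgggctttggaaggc

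E2F matches of other members are shown with up to 16 bases on either side and end at the base before the start of the gene, with the match in capitals. The first 6 are the lowest gene of each role, the clamp apart, whose match lies wholly before the start, and the last 3 are the genes with E2F letters that were not called with the conjugate. These windows were chosen after the values were seen. The same letters, GCGGGAAA, stand in ORC3, GINS2, TYMS and the uncalled CDT1.
ORC3, chr6:87590107-87590134 (+): gcagccgcgagggcgcGCGGGAAAtccc
MCM3, chr6:52284893-52284932 (-): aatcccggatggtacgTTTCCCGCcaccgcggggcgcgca
GINS2, chr16:85688962-85689001 (-): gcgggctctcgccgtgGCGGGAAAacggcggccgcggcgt
POLA1, chrX:24693765-24693804 (+): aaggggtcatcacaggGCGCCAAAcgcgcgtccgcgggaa
TYMS, chr18:657598-657637 (+): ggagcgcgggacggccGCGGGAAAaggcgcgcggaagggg
CDC25A, chr3:48188438-48188477 (-): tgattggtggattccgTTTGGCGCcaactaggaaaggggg
CDT1, chr16:88803738-88803777 (+): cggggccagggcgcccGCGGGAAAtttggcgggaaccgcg
POLE, chr12:132687343-132687376 (-): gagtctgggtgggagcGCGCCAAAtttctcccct
LIG1, chr19:48170435-48170474 (-): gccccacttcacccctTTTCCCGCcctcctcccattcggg

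Probe sets of 1 gene often differed. Of the 38 genes with over 1 probe set, 25 had all of them below 0 with the conjugate, and the values spanned over 1 on the log2 scale in 24 and over 2 in 13. In 14 of the 38 all probe sets were called lower. Among the genes called lower, ORC2, ORC5, MCM6, CDC7, POLA2, PRIM2, POLD3, PCNA, RPA1, CCNE1 and CCNE2 had only 1 of several probe sets called. Only ORC3 and RFC4 had probe sets called in both directions. The other 13 genes, MCM5 among them, rest on 1 probe set each. By class, 77 of the 136 probe sets were bright, 48 middle, 6 dim and 5 not classed, so that 56.6% were bright, against 18.4% of all probe sets. Among the bright ones 61 of 77 were lower, or 79.2%, and none higher, against 55.5% lower and 10% higher of all bright probe sets, with a median of -1.64 against -1.03. Among the middle ones 25 of 48 were lower, or 52.1%, and 1 was higher, the one of ORC3, against 24.1% lower and 26.6% higher of all middle probe sets, and the medians were -0.71 and 0.17. Of the 6 dim ones 1 was higher, that of RFC4, and none lower, against 32.8% higher and 0.648% lower of all dim probe sets, and the medians were 0.37 and 0.49. After centring within classes, 58 of the 77 bright, 41 of the 48 middle and 5 of the 6 dim probe sets had a difference below 0. Over all probe sets 4636 of 9072 bright, 11559 of 24204 middle and 6718 of 14043 dim ones did. With each array centred within classes, 41 of the bright ones were called lower and 10 higher, against 30% and 28.2% of all bright probe sets. Of the middle ones 28 were then lower and none higher, against 26.2% and 22.4% of all middle probe sets. Of the dim ones 1 was lower, 11750920_a_at of CDC7 (-0.64, limma adjusted p = 0.0346), and none higher, against 5.29% and 8.4% of all dim probe sets.

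**Figure D3:**
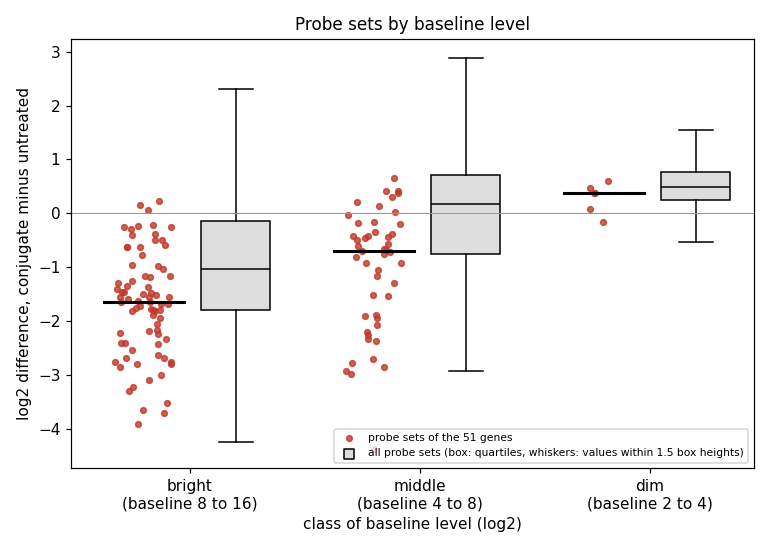
Log2 difference of conjugate minus untreated (vertical axis) for the probe sets of the 51 genes (points, with a bar at their median) beside all probe sets of the same class of baseline level (boxes at the quartiles with a line at the median). The median of the 51 genes is -1.64 against -1.03 in the bright class, -0.71 against 0.17 in the middle class and 0.37 against 0.49 in the dim class.

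When each array was centred on its median within each class, 32 of the 51 genes were called lower with the conjugate and 5 higher, against 22.9% lower and 23.9% higher of all genes. The median of the 51 moved to -0.65, against 0.07 for all genes. All 32 were among the 41 called lower as deposited. The other 9 lost the call: MCM2, MCM6, GINS2, POLA1, PRIM1, RPA2, RPA3, RRM2 and TK1. The 6 origin recognition genes all stayed lower, as did GINS3 (-2.96), FEN1 (-2.76), DBF4 (-2.22), MCM4 (-2.19), TYMS (-1.37) and both E cyclins. The 5 that limma called higher were POLE (1.22, adjusted p = 0.00119), POLD1 (0.79, adjusted p = 0.0136), POLD2 (0.55, adjusted p = 0.00789), LIG1 (0.54, adjusted p = 0.0118) and RPA3 (0.38, adjusted p = 0.0499). RPA3 thus turned from a call of lower as deposited, and the other 4 were not called as deposited. MCM5 went to 0.31 with no call (limma adjusted p = 0.136).

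**Figure D4:**
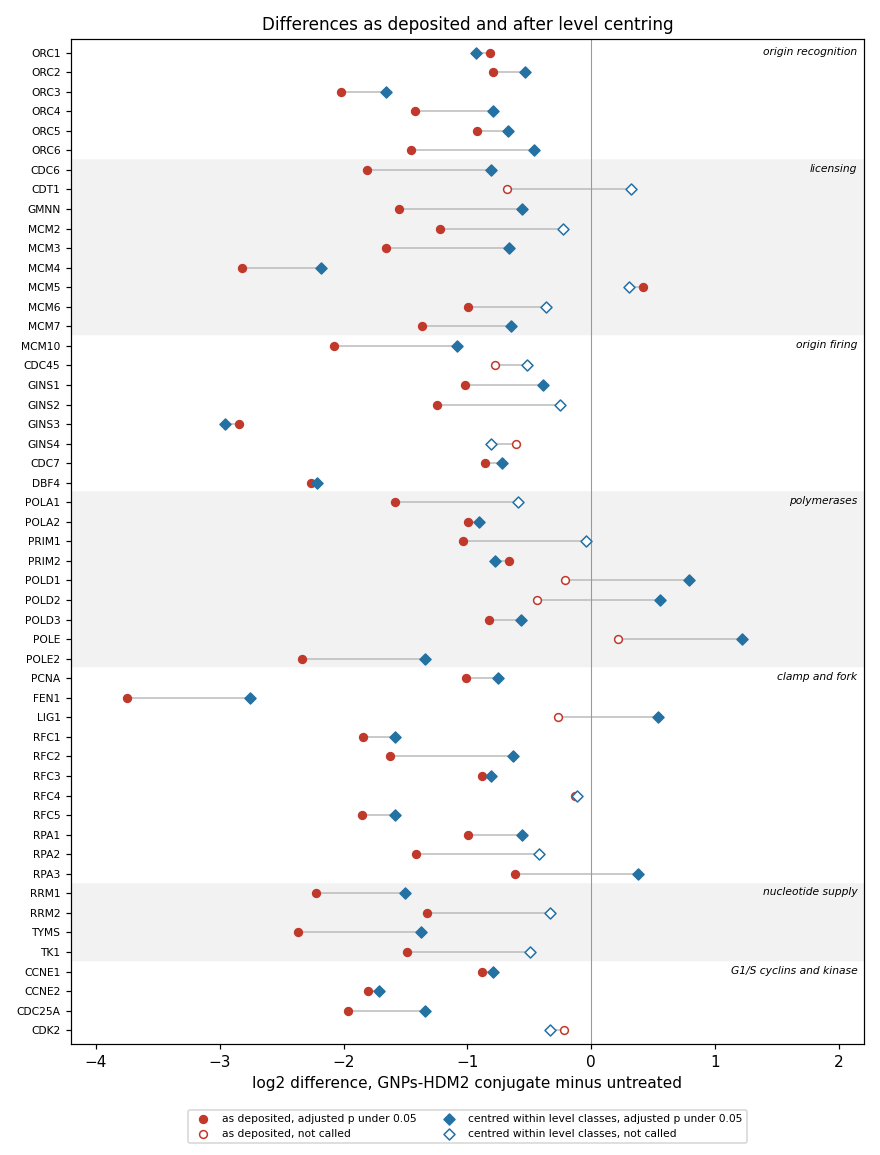
Log2 difference of conjugate minus untreated (horizontal axis) of each gene as deposited (circles) and with every array centred inside its level classes (diamonds), filled where the limma adjusted p is under 0.05. FEN1, GINS3 and MCM4 lie farthest left as deposited, GINS3, FEN1 and DBF4 after centring, and POLE, POLD1, POLD2, LIG1 and RPA3 end right of 0.

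Quantile normalization, which makes the distribution of values equal on all 9 arrays, left 11 of the 51 lower with the conjugate and none higher, against 7.47% lower and 3.15% higher of all genes. The values were already relative to a baseline, so this step also gave arrays of wide and of narrow spread the same spread. The 11 were ORC3, MCM2, MCM3, MCM4, MCM7, DBF4, FEN1, RFC1, RRM1, TYMS and CDC25A. All of these but MCM2 were called lower under every alternative in which they were measured. Apart from quantile normalization, 21 of the 41 were, PCNA, CDC6, MCM10, GINS3, POLE2 and CCNE2 among them.

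With bare particles no gene of the 51 passed the limma test against untreated cells in either direction. Over all genes 0% passed as lower and 0.0221% as higher. At an unadjusted p under 0.05 there were 4 of the 51 and 972 of all 18132 genes. The 51 differences ran from -0.30 for MCM5 to 0.92 for RRM2, with a median of 0.26 against -0.06 for all genes, and 47 of the 51 lay above 0, against 41% of all genes. The 3 bare particle arrays lay above the 3 untreated arrays without overlap for 21 of the 51 and below them for MCM5, while over all genes 12.4% were higher and 21.5% lower without overlap. The median by role was highest in the origin firing genes (0.55) and in nucleotide supply (0.54) and lowest in the licensing genes (0.043).

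The largest differences with bare particles were 0.92 (SE 0.34, limma adjusted p = 0.864) for RRM2, 0.84 (SE 0.26, limma adjusted p = 0.864) for TK1 and 0.82 (SE 0.33, limma adjusted p = 0.864) for CDC45, TK1 and CDC45 being named after their values were seen. TK1 lay at 0.72, 0.66 and 0.84 on the bare particle arrays and at -0.62, -0.15 and 0.46 on the untreated arrays. CDC45 lay at 0.66, 0.53 and 0.72 with bare particles and at -0.62, -0.27 and 0.33 in untreated cells. In both genes every bare particle array was above every untreated array, and the untreated arrays were spread far wider than the bare particle arrays. Untreated replicate 3 had the highest untreated value in 35 of the 51 genes, and untreated replicate 1 the lowest in 30. With array weights estimated for each group, which allow for that unequal spread, 5 were called higher (ORC1, CDC45, PRIM2, RRM2 and TK1) and none lower, against 2.6% higher and 1.33% lower of all genes. With quantile normalization 15 were called higher and MCM5 lower, against 6.97% higher and 8.37% lower of all genes. The median of the 51 was then 0.60, against 0.26 as deposited, and that of all genes -0.05.

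Set against bare particles in place of untreated cells, the conjugate gave 44 of the 51 genes lower and MCM5 higher (0.72, SE 0.16, limma adjusted p = 0.00356), against 29.1% lower and 43.2% higher of all genes. The median difference was -1.49 against 0.30 for all genes, and 1 of the 51 lay above 0, against 58.8% of all genes. The conjugate arrays lay below the bare particle arrays without overlap for 44 of the 51 and above them for MCM5, while over all genes 30.5% were lower and 45.9% higher without overlap. CDT1, POLD1, POLD2, POLE, LIG1 and RFC4 passed in neither direction. FEN1 was again lowest at -4.01 (SE 0.40), then GINS3 at -3.59 (SE 0.38) and MCM4 at -2.95 (SE 0.49). CDC45 (-1.59, SE 0.33, limma adjusted p = 0.00273), GINS4 (-1.34, SE 0.35, limma adjusted p = 0.00757) and CDK2 (-0.48, SE 0.17, limma adjusted p = 0.0299), which did not pass against untreated cells, passed here. This comparison shares the conjugate arrays with the one against untreated cells, so the counts of both are no separate evidence. Centred within level classes, 41 were lower and 5 higher, against 27.5% lower and 31.9% higher of all genes.

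**Figure D5:**
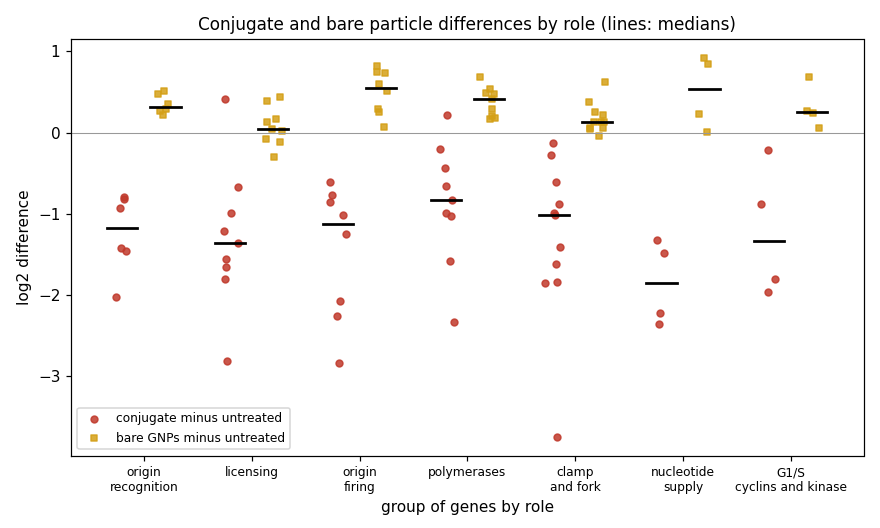
Log2 differences (vertical axis) of the 51 genes by role, conjugate minus untreated (circles) and bare particles minus untreated (squares), with a line at the median of each. The circles lie below 0 except those of MCM5 and POLE, and 47 of the 51 squares lie above 0.

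Another 42 measured genes of replication and the G1/S step were looked at beside these 51. They included CCNA2 and CCND1, histone chaperones and further clamp loader subunits. With the conjugate 22 of the 42 were lower and none higher against untreated cells, with a median of -0.90, beside the 25.1% lower and 33.1% higher of all genes and their median of 0.25. The lowest were DTL, which directs the destruction of CDT1 (-2.50, SE 0.40, limma adjusted p = 0.00239), the histone chaperone ASF1A (-2.23, SE 0.24, limma adjusted p = 0.000725) and the S phase cyclin CCNA2 (-2.13, SE 0.35, limma adjusted p = 0.00245). The highest were the G1 cyclin CCND1 (0.35, SE 0.16, limma adjusted p = 0.086), the clamp loader subunit CHTF18 (0.30, SE 0.22, limma adjusted p = 0.252) and DBF4B, a second activator of CDC7 (0.12, SE 0.19, limma adjusted p = 0.58), none of which passed. With bare particles none of the 42 was called, with a median of 0.19. Centred within level classes, 18 of the 42 were lower and 3 higher with the conjugate, with a median of -0.24, against 22.9% lower and 23.9% higher of all genes and their median of 0.07.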

How the data were processed

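The authors deposited 1 table of log2 values for 49395 probe sets on 9 arrays, made from biotin-labelled RNA per the labels' protocols. The base of 2 is an assumption, the baseline is inferred from the values (59.69% of probe sets are exactly 0 on some array), and the summarization and normalization tools are not given in the sources used here. After 102 array controls were left out, 44988 probe sets had 1 symbol in the platform annotation, 1832 several and 2473 none, and the probe sets with that symbol alone were averaged for each gene. Differences were fitted over all 9 arrays with limma 3.58.1 (lmFit and eBayes) in R 4.3.3, and 2-sided p-values were adjusted by Benjamini-Hochberg over all genes, or over all probe sets where a probe set is named, at a threshold of 0.05. SE is the standard error of the log2 difference from that fit.

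Level classes came from the step size of the stored numbers, kept at a posterior probability of at least 0.6, and 1974 probe sets were not classed. That minimum and the model behind it were revised on simulated numbers before the values of these genes were viewed. The fit was also run on simulated data with independent noise for each gene or probe set. These data held no shift by signal level, so they cannot test the calls under such a shift. Level centring subtracts the median of each class from each array.

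The members and lists were chosen with earlier results of these data known. Values on every array are given for MCM5, PCNA and the lowest and highest gene of each role by conjugate minus untreated, and for any gene called higher with the conjugate or called with bare particles. Of the 43 other replication genes, 42 were measured and the 3 lowest and 3 highest are named. Other alternatives were quantile and median centring, each array left out, the replicate block, fits of the 2 groups compared, trend and robust settings, array weights for each group, the median over probe sets, and filters on probe set suffix, dim level and variance.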

Additional observations from a re-analysis of the deposited data

Results flagged for a closer look

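The hybridization control probe sets lie outside the comparisons of genes, and they differed between the conjugate and untreated arrays by 2.19 on the log2 scale. Their mean was 1.98, 1.93 and 1.37 on the conjugate arrays, 0.13, -0.58 and 0.038 on the bare particle arrays and -0.47, -0.47 and -0.34 on the untreated arrays, without overlap between conjugate and untreated. The poly-A controls, added before labelling, averaged 1.30 ± 0.43 on the conjugate, -0.19 ± 0.32 on the bare particle and -0.61 ± 0.66 on the untreated arrays (SD, n = 3 each). Conjugate replicate 3 had the smallest value of the conjugate arrays in both kinds of control, and it had the highest conjugate value in 49 of the 51 replication genes. The part of this shift in the falls of these genes was not tested.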

How the results depend on the processing

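The precision is limited by 3 arrays in each group, by the unstated baseline and by the wider spread of the conjugate arrays. Leaving out 1 array at a time gave between 31 (without untreated replicate 3) and 47 genes lower (without conjugate replicate 3) with the conjugate against untreated cells, 0 to 1 higher, and 42 to 49 lower against bare particles. With the replicate block, 42 were lower and 0 higher against untreated cells, and 45 and 1 against bare particles. The correlations of deviations of like-numbered conjugate and untreated arrays were 0.13, 0.040 and 0.23, so the numbers were not taken to pair arrays.

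Quantile normalization left 11 of the 41 falls and 0 rises against untreated cells, and with bare particles gave 1 gene lower and 15 higher. Level centring left 32 falls and gave 5 rises, and 5 rises of the conjugate against bare particles. Level centring with array weights, chosen after seeing the data, gave 27 falls and 2 rises against untreated cells, 2 rises against bare particles, and 3 genes higher with bare particles. Array weights alone gave 5 higher with bare particles. The rise of MCM5 against untreated cells went to 0 calls with median centring, the 2 groups compared alone, array weights, without dim probe sets and, being then filtered out, under the filter on variance, which also gave 0 rises against bare particles. The median of probe sets and the suffix filter each gave 2 rises against bare particles. The cause was not tested for any of these changes.

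Direction turned for some genes in conjugate minus untreated. Under quantile normalization ORC1 went to 0.46, ORC4 to 0.011, ORC5 to 0.077, CDT1 to 0.014, MCM6 to 0.039, GINS4 to 0.23, PRIM2 to 0.041, POLD2 to 0.13, LIG1 to 0.047, RFC4 to 0.22 and CDK2 to 0.14. Under level centring, with or without array weights, CDT1 went to 0.32, POLD1 to 0.79, POLD2 to 0.55, LIG1 to 0.54, RPA3 to 0.38 and the dim probe set of PCNA to -0.098. Without s or x probe sets GINS4 went to 0.47, PRIM2 to 0.21 and RPA1 to 0.42, and with the median of probe sets RFC4 went to 0.48. POLE ranged from -0.036 to 0.38, the MCM5 probe set from 0.30 to 0.51 and the dim PCNA probe set from 0.19 to 0.56 when arrays were left out, and MCM5 was called over all probe sets without conjugate replicate 2 and the PCNA one without conjugate replicate 3. For conjugate minus bare particle, level centring turned CDT1 (0.32), POLD1 (0.67), POLD2 (0.40), POLE (0.98), LIG1 (0.45) and RPA3 (0.30), POLE ranged from -0.32 to 0.088 when arrays were left out, the suffix filter turned GINS4 (0.43) and RPA1 (0.53), and the median of probe sets turned RFC4 (0.44). For bare particle minus untreated, PCNA went to 0.041 without dim probe sets or under the filter on variance, and TYMS to -0.036 with level centring and between -0.013 and 0.049 when arrays were left out.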
